A study of Mus musculus with 6 samples.

Results

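The genes described here encode the ephrins and their Eph receptors, the semaphorins and plexins, and the Slit ligands with their Robo receptors. They were taken as every gene symbol of the deposited count tables that names an Epha, Ephb, Efna, Efnb, Sema3 to Sema7, Plxn, Slit or Robo gene, so the rule used no measured value. The rule found 58 genes of 23337, which is 0.249% of all symbols. They comprise 8 ephrins, 14 Eph receptors, 20 semaphorins, 9 plexins, 3 Slits and 4 Robos.

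Pancreata were dissected from NMRI mouse embryos at E13.5 and RNA was sequenced from 3 control and 3 mutant pools, each of 5 to 6 organs of equal genotype. Control embryos were wildtype. Mutant embryos were labelled Prox1-nullyzygous, written Prox1 GFPCre/D, so they lack function of the homeobox gene Prox1 by label, and the sources used here do not describe what each allele removes. Pools are the replicates. The labels do not say whether pools share litters, and p-values measure the spread between these pools.

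Guidance molecules were first known for steering axons. Ephrins and Eph receptors sit on neighbouring cells and signal in both directions, which repels cells or sorts them apart. Class 3 semaphorins are secreted and act through neuropilin and plexin complexes, while the other vertebrate semaphorins are anchored in the membrane and bind plexins directly. Slits are secreted ligands of Robo receptors. Outside the nervous system these families act in vessel patterning, epithelial branching and mesenchymal organisation, and in pancreas Eph signalling is known for shaping the epithelium and Slit-Robo signalling for progenitor identity.

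The libraries held 16060424 to 17633867 counted reads each, so 1 CPM (counts scaled to library size and between libraries by edgeR's TMM method) stood for about 15.9 reads in the smallest library, and guidance genes took 0.492% to 0.551% of the reads. Prox1 itself was counted 1764, 1687 and 1824 times in controls and 1330, 1774 and 1602 times in mutants (log2 fold change -0.17, SE 0.074, edgeR adjusted p = 0.235). Because the labels do not place the deletion, this count does not check the genotype. None of 10 pancreatic epithelium markers was at 0 in all libraries. The same held for the marker lists of other tissues, hepatocyte and gut markers among them, so it does not check the labelled tissue. Control pools held 50.4 ± 0.91 CPM of Pdx1, the pancreatic homeodomain factor, and mutant pools held 40.7 ± 6.34 CPM (SD, n = 3). Every mutant pool was below every control pool for Pdx1, which was not called (log2 fold change -0.31, SE 0.101, edgeR adjusted p = 0.114). Control pool 3 and mutant pool 1 held almost no reads of Xist, the RNA of the inactive X chromosome (9 and 2 reads, against 33297 to 47135 in the others).

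To show the range of start-site sequence, the 250 bases before the RefSeq start site are printed for Slit2, Efna5 and Epha8, the called genes whose windows held the most GC-box matches, and for Sema4a, the one called lower (GRCm38.p6, 5′ to 3′ on the gene's strand). Capitals mark GGGCGG or its reverse complement CCGCCC, the core of the GC box bound by Sp-family factors.
Slit2, chr5:47982905-47983154, plus strand: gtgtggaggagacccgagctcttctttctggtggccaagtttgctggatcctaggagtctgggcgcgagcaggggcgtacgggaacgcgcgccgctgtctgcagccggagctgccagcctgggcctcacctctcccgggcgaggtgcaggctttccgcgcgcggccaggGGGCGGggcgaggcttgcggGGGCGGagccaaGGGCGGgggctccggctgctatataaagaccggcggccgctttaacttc
Efna5, chr17:62881318-62881567, minus strand: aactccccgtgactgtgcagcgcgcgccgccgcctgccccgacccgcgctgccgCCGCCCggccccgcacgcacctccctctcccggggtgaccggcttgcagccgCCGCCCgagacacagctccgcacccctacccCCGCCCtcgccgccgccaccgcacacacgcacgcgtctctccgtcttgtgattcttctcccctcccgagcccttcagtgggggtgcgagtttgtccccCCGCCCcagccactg
Epha8, chr4:136956817-136957066, minus strand: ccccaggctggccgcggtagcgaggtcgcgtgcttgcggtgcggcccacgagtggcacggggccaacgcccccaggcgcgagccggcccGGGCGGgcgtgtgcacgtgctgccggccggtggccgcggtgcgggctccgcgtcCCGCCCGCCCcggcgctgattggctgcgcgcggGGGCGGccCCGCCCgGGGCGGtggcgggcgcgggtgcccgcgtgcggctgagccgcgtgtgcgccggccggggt
Sema4a, most upstream start, chr3:88461183-88461432, minus strand: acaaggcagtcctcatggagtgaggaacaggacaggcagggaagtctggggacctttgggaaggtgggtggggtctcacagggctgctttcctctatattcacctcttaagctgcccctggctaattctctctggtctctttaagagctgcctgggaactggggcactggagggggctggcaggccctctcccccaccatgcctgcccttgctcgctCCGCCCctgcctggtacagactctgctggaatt

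The Slit2 window held 3 such matches, the Efna5 window 4, the Epha8 window 6 and this Sema4a window 1. These were chosen for their matches, and the other called higher genes with a window held as few as Sema4a or fewer, with 1 in Epha2, 1 and 0 in Sema6d, 0 in Sema5b and 0 in Efnb1. CpG dinucleotides numbered 25, 32 and 46 in the Slit2, Efna5 and Epha8 windows, 19 in that of Sema5b, 13 in Efnb1, 9 in Epha2, 9 and 6 in Sema6d and 2 to 13 over the 4 listed start sites of Sema4a. Over the 12 windows of called genes the median was 11 CpGs, with GGGCGG in 66.7%, and over all guidance windows it was 15. GGGCGG on either strand was found in 47 of 67 windows of the guidance genes (70.1%) and in 32.7% of all 32851 windows of that length. TATAAA on either strand was found in 2 of the 67 (2.99%, one of them Slit2) and in 12.4% of all windows. Base composition differed too, with medians of 64% GC and 15 CpGs in guidance windows against 52.4% GC and 6 CpGs in all windows. The motif shares were not adjusted for it. The sequences were matched by symbol for 51 of the 58 genes and are from RefSeq. A match is a run of letters, not a measured binding site.

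The comparison asked which guidance genes differed between mutant and control pancreas. Of the 58 genes, 55 had enough reads to be tested, and Epha6, Epha10 and Robo3 did not, with 0 to 9 reads per library. Among the 55 tested, 9 were called by edgeR at an adjusted p under 0.05 (16.4%), against 7.95% of all 14687 genes tested. In the higher direction 8 of 55 were called (14.5%, against 3.67% of all genes), and in the lower direction 1 of 55 (1.82%, against 4.28%). The median log2 fold change was 0.09 over the 55 genes and 0.00055 over all genes, with 37 guidance genes above 0 and 18 below. Without control pool 1 or without mutant pool 2 the number called higher was 5, and Efnb1, Epha8 and Sema6d were the ones lost in either case.

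**Figure D1:**
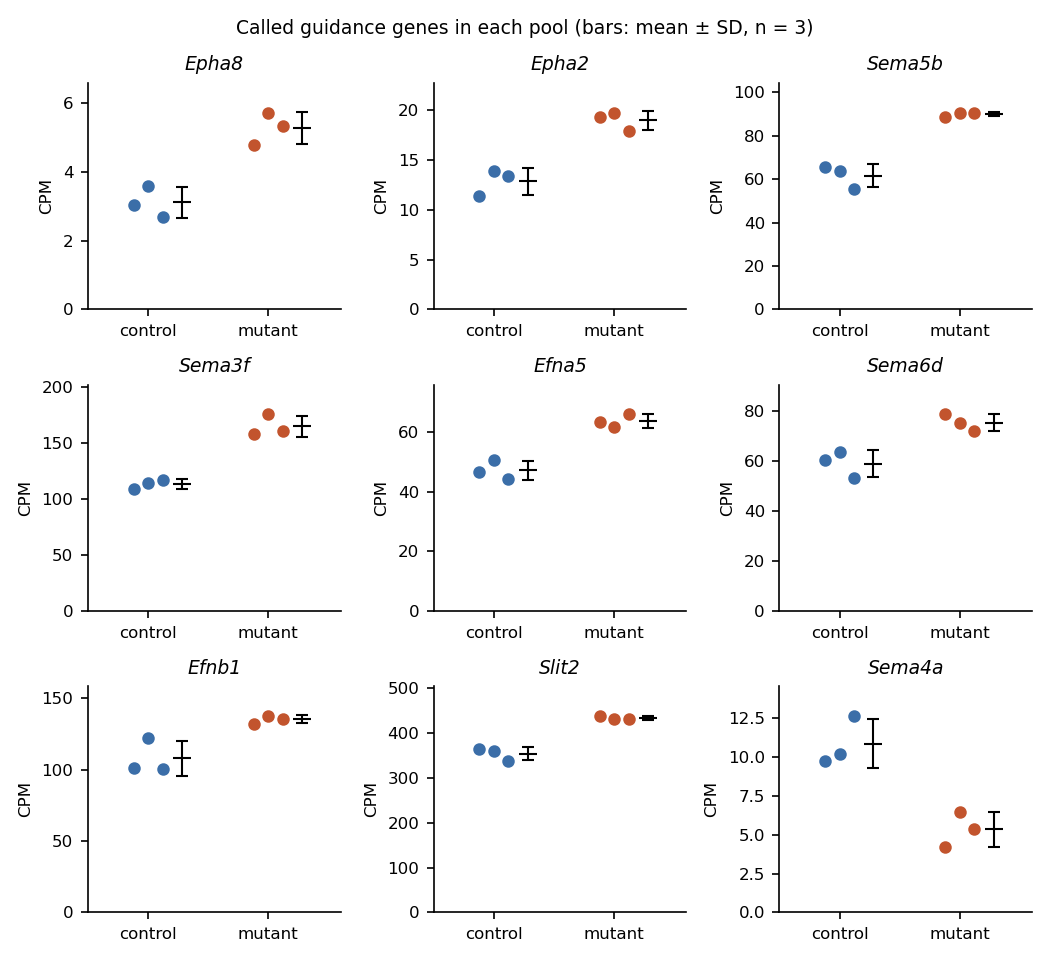
Level in CPM (vertical axis, from 0) of the 9 called guidance genes in each of 3 control and 3 mutant pools, with mean ± SD beside the points. In all 9 panels the groups do not overlap, and Sema4a is the one panel with lower mutant pools.

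Ligand genes held most of the calls. Of 31 ligand genes, 6 were called higher and 1 lower (22.6% called), and of 24 tested receptor genes 2 were higher and 0 lower (8.33%). Over all genes tested, 7.95% were called in either direction, near the receptor share, and 3.67% were called higher. Whether ligands and receptors differ in this was not tested. Summed over all ligand genes, the level was 2101 to 2332 CPM in controls and 2413 to 2464 CPM in mutants. Receptors together stood at 2777 to 3142 CPM in controls and 2932 to 3082 CPM in mutants, so the summed receptor ranges overlapped.

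Ephrin genes leaned one way. Both called ephrins, Efna5 and Efnb1, were higher, and all 8 ephrin genes had a log2 fold change above 0, between 0.04 and 0.43. Efna5, encoding a lipid-anchored ligand of EphA receptors (chromosome 17, 62604184 to 62881317), stood at 46.7, 50.7 and 44.5 CPM in controls, while the mutant pools reached 63.6, 61.8 and 66.2 CPM. Every mutant pool was above every control pool, the log2 fold change was 0.43 (SE 0.062, edgeR adjusted p = 0.00388), and the call held under all 16 alternative settings. Efnb1, encoding a transmembrane ephrin of EphB receptors, is X-linked (chromosome X, 99136130 to 99148991) and was the most abundant ephrin per transcript length, at 33.1 ± 3.78 CPM per kb in controls and 41.5 ± 0.89 in mutants (SD, n = 3). Its pools read 101.3, 122.1 and 100.2 CPM in controls and 132.2, 137.9 and 135.8 CPM in mutants, a log2 fold change of 0.33 (SE 0.074, edgeR adjusted p = 0.0283). Control pool 2 lay apart from the other control pools, toward the mutants. The Efnb1 call did not survive the loss of any single pool other than control pool 2 (edgeR adjusted p 0.0612 to 0.110), nor the loss of both pools with almost no Xist reads (0.109).

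Efna1, Efna3 and Efna4, a cluster of 3 ligand genes on chromosome 3 between 89271733 and 89338028, were not called, yet in none of them did the groups overlap. The log2 fold changes were 0.29 (SE 0.103) for Efna1, 0.40 (SE 0.130) for Efna3 and 0.21 (SE 0.074) for Efna4, with edgeR adjusted p of 0.139, 0.105 and 0.132. Efna4, the most abundant ephrin-A gene per length, read 31.8, 35.3 and 30.3 CPM in controls and 35.5, 38.6 and 38.7 CPM in mutants, so mutant pool 1 and control pool 2 were nearly level. The gap between Efna3 and Efna4 is 10.4 kb and that between Efna1 and Efna3 is 32.8 kb. Annotated antisense transcripts overlap Efna3 and Efna4, and as the strand setting of the counting is not given in the sources used here, their reads cannot be told apart. The same limit holds for Slit2 and Sema5a, each overlapped by an antisense gene, and for Sema5b, overlapped by a pseudogene on the opposite strand. It also holds for Epha1, which Zyx overlaps on the opposite strand, and for other guidance genes. Efnb2, the ephrin of arterial endothelium, read 66.3, 63.3 and 61.3 CPM in controls and 86.4, 71.0 and 67.6 CPM in mutants. Its groups did not overlap, mutant pool 1 was well above the rest, and it was not called (log2 fold change 0.24, SE 0.088, edgeR adjusted p = 0.159). For Efnb2 the value dropped to 0.12 with mutant pool 1 left out, and to 0.09 with control pool 3 left out as well. Efna2 at 0.10 (SE 0.088) and Efnb3 at 0.04 (SE 0.089) overlapped between groups.

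Among 7 EphA receptor genes tested, Epha2 and Epha8 were called higher. Epha2, encoding a receptor kinase typical of epithelia (chromosome 4, 141301240 to 141329384), read 11.3, 13.8 and 13.3 CPM in controls and 19.2, 19.7 and 17.9 CPM in mutants. The groups stood clear of each other, with a log2 fold change of 0.56 (SE 0.0996, edgeR adjusted p = 0.01), called under all 16 alternatives. Epha8 was a scarce transcript, with 51, 59 and 46 reads in controls and 76, 97 and 93 reads in mutants. That made 3.11 ± 0.456 and 5.27 ± 0.47 CPM (SD, n = 3), a log2 fold change of 0.76 (SE 0.169, edgeR adjusted p = 0.0268). Epha8 was no longer called when control pool 1 was left out (edgeR adjusted p = 0.0896), nor without control pool 3 (0.0827), mutant pool 2 (0.106), mutant pool 3 (0.0787) or both pools with almost no Xist reads (0.0873).

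Epha4, the most abundant EphA gene per length at 29.4 ± 2.92 CPM per kb in controls and 36.1 ± 6.02 in mutants (SD, n = 3), was not called. Its pools read 181.5, 206.6 and 170.5 CPM in controls and 185.9, 239.3 and 259.6 CPM in mutants, so mutant pool 1 lay inside the control range while the other mutant pools lay above it. The log2 fold change was 0.29 (SE 0.116, edgeR adjusted p = 0.181), and leaving out single pools moved it from 0.19 without mutant pool 3 (0.448) to 0.42 without mutant pool 1, the one such omission that gave a call (0.0237). Epha5, at 21 to 36 reads per library, had groups that did not overlap with mutants below controls, and was not called (-0.39, SE 0.223, edgeR adjusted p = 0.38). Epha1, Epha3 and Epha7 had log2 fold changes between 0.03 and 0.11.

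None of the 5 EphB receptor genes was called, and their log2 fold changes lay between -0.10 and 0.10. Ephb4, the venous partner of ephrin-B2 (its locus overlaps Zan on the opposite strand), led them at 62.1 ± 3.46 CPM per kb in controls and 59.7 ± 1.57 in mutants (SD, n = 3). It read 264.0, 286.3 and 257.7 CPM in controls and 252.8, 257.9 and 266.3 CPM in mutants. The groups overlapped, and the 95% normal interval of its log2 fold change ran from -0.15 to 0.04, narrower than the F test would give. Ephb2 and Ephb3, receptors of epithelial compartments, had intervals of -0.22 to 0.13 and -0.22 to 0.03. Ephb1 and Ephb6 read 12 to 23.9 CPM over all pools with overlapping groups.

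**Figure D2:**
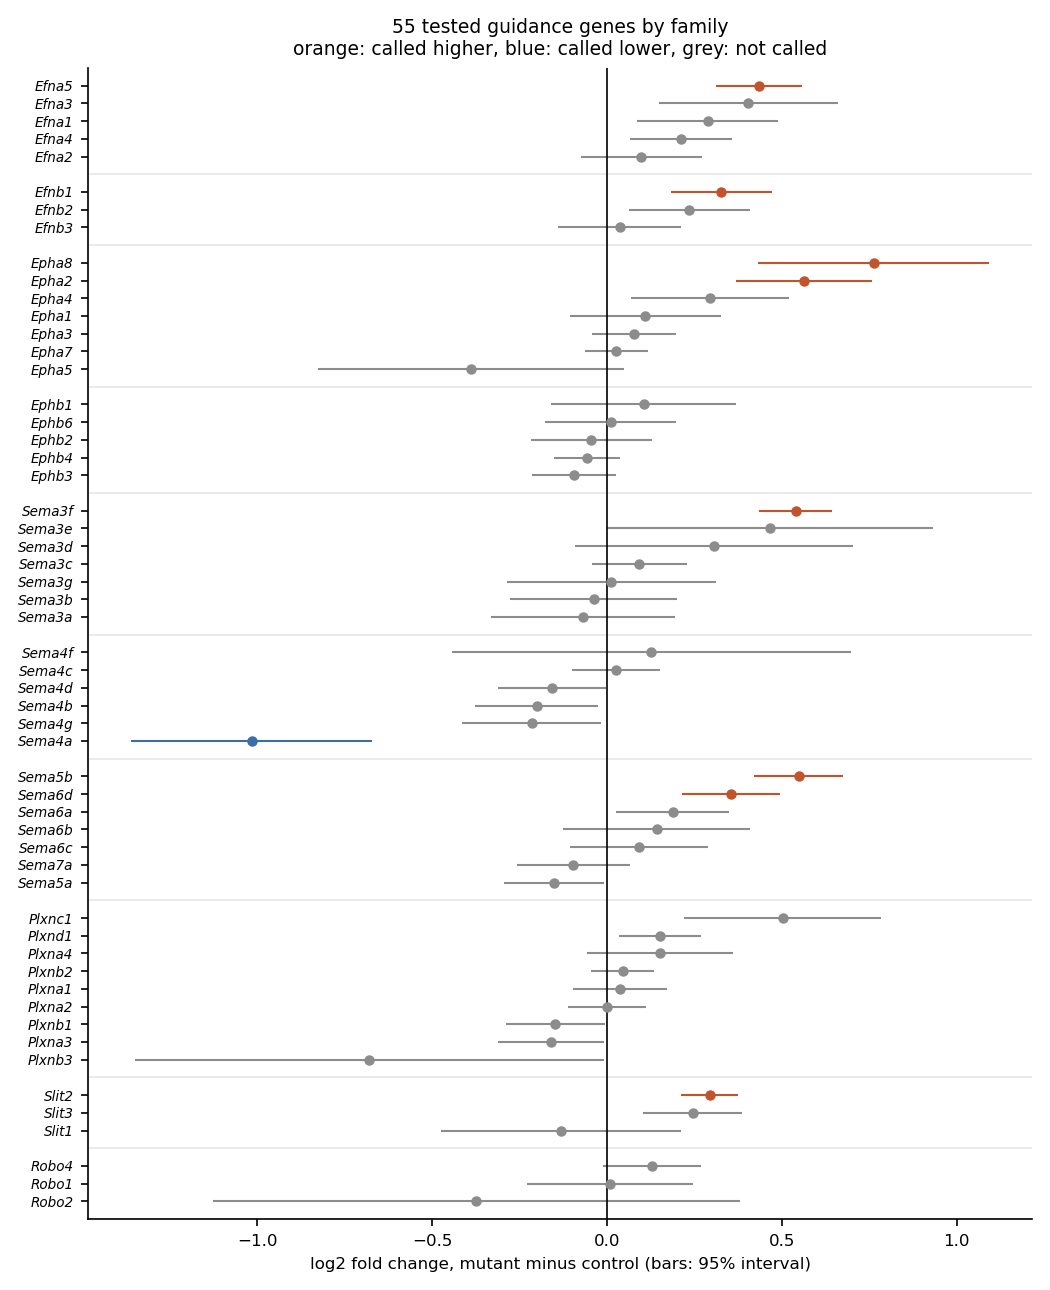
Log2 fold change, mutant minus control (horizontal axis), of the 55 tested guidance genes, grouped by family, with 95% normal intervals unadjusted for the number of genes. Orange points were called higher, the blue point (Sema4a) called lower and grey points not called, and all 8 ephrin genes at the top lie to the right of 0.

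Semaphorin genes moved in both directions, with 3 of 20 called higher, 1 lower and 16 not called. Sema3f, encoding a secreted ligand received by neuropilin-2 and plexin-A complexes (chromosome 9, 107681500 to 107710475), had the smallest adjusted p of all guidance genes. It read 108.7, 113.8 and 117.1 CPM in controls and 157.4, 175.6 and 160.5 CPM in mutants. The lowest mutant pool was far above the highest control pool, and the log2 fold change was 0.54 (SE 0.054, edgeR adjusted p = 0.000687), a 1.45-fold difference. Per length it was the most abundant class 3 semaphorin, at 33.3 ± 1.26 CPM per kb in controls and 48.5 ± 2.86 in mutants (SD, n = 3). Sema3b, its neighbour 72.3 kb away, was flat, at 12.9 ± 2.01 and 12.6 ± 0.425 CPM (SD, n = 3; log2 fold change -0.04, 95% interval -0.28 to 0.20).

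The other class 3 genes were not called. Sema3a, the classic collapsin of sensory and sympathetic axons, read 71.5, 63.1 and 63.6 CPM in controls and 79.4, 55.7 and 54.2 CPM in mutants. Sema3d read 33.8, 29.4 and 34.4 CPM in controls and 55.6, 36.5 and 28.8 CPM in mutants. In both genes mutant pool 1 was the highest library and the groups overlapped. Sema3e, the direct ligand of plexin-D1, had 45 to 76 reads per library and a log2 fold change of 0.47 (SE 0.238, edgeR adjusted p = 0.316). Sema3c at 0.09 (SE 0.069) and Sema3g at 0.01 (SE 0.153) overlapped between groups.

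Sema4a was the single guidance gene called lower and the only one changed by at least 1 log2. It encodes a membrane semaphorin studied in T cell and retinal biology (chromosome 3, 88435959 to 88461182). Reads numbered 163, 167 and 217 in controls and 67, 110 and 94 in mutants, or 9.73, 10.2 and 12.7 against 4.21, 6.48 and 5.38 CPM. No mutant pool reached the lowest control pool, and the log2 fold change was -1.02 (SE 0.176, edgeR adjusted p = 0.00926), a 2.02-fold decrease. All 16 alternatives called it, at -1.17 to -0.75. The remaining class 4 genes were not called. Sema4b at -0.20 (SE 0.09), Sema4d at -0.16 (SE 0.079) and Sema4g at -0.22 (SE 0.101) had negative values, Sema4c, the most abundant of the class at 19.7 ± 1.69 CPM per kb in controls and 20.03 ± 0.472 in mutants (SD, n = 3), had 0.03 (SE 0.065), and Sema4f had 27 to 64 reads per library.

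Classes 5 to 7 held 2 further higher genes. Sema5b, a transmembrane semaphorin with thrombospondin repeats (chromosome 16, 35541145 to 35664732), read 65.4, 63.6 and 55.4 CPM in controls and 88.7, 90.4 and 90.6 CPM in mutants. Mutant pools were tightly grouped and clear of the controls (log2 fold change 0.55, SE 0.065, edgeR adjusted p = 0.00148). Its paralogue Sema5a was the most abundant semaphorin per length in controls, at 51.9 ± 3.98 CPM per kb, and stood at 46.7 ± 3.7 in mutants (SD, n = 3), where the mean of Sema3f was higher. Sema5a was not called, with overlapping groups and a log2 fold change of -0.15 (SE 0.073, edgeR adjusted p = 0.285). Sema6d, a plexin-A1 ligand (chromosome 2, 124089969 to 124667770), read 60.3, 63.6 and 53.1 CPM in controls and 78.9, 75.3 and 72.1 CPM in mutants. Its log2 fold change was 0.35 (SE 0.072, edgeR adjusted p = 0.0186), and the call was lost without control pool 1 (0.0603), mutant pool 1 (0.0625), mutant pool 2 (0.0691) or both pools with almost no Xist reads (0.0723). Noncoding genes on the opposite strand overlap Sema6d, and their reads cannot be told apart from its own without the strand setting. Sema6a, Sema6b, Sema6c and Sema7a had log2 fold changes between -0.10 and 0.19 and were not called.

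None of the 9 plexin genes, the semaphorin receptors, was called. Plxnb2, a receptor of class 4 semaphorins, was the most abundant guidance gene on both scales, at 88.2 ± 3.12 CPM per kb in controls and 90.9 ± 2.52 in mutants (SD, n = 3). Its log2 fold change was 0.04, with a 95% interval of -0.05 to 0.14. Plxnd1, a receptor of endothelium, read 325.6, 345.7 and 305.6 CPM in controls and 386.8, 340.5 and 358.0 CPM in mutants, overlapping through mutant pool 2 (0.15, SE 0.06, edgeR adjusted p = 0.185). Plxnc1, the receptor of Sema7a, was the one plexin whose groups did not overlap, at 15.6, 14.4 and 10.5 CPM in controls and 20.9, 18.3 and 18.1 CPM in mutants. With a log2 fold change of 0.50 (SE 0.144) it missed the edgeR threshold (adjusted p = 0.0709), whereas DESeq2 called it (adjusted p = 0.0235). The values of Plxna1, Plxna2, Plxna3, Plxna4 and Plxnb1 lay between -0.16 and 0.15, and Plxnb3 had 7 to 19 reads per library.

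**Figure D3:**
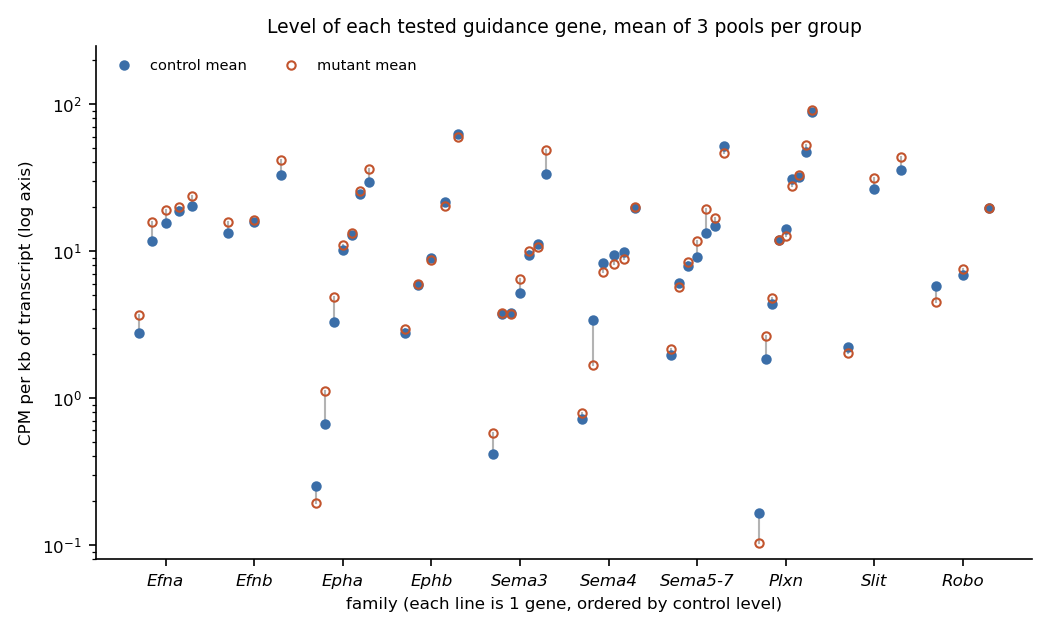
Level per kb of transcript (vertical axis, log scale, CPM per kb) of the 55 tested guidance genes by family, with filled points for the control mean and open points for the mutant mean over 3 pools. Plxnb2 is the highest point, and most lines that join the means are short, with Sema4a among the longest.

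Among the Slit genes, Slit2 rose and the Robo receptors were not called. Slit2, a secreted Robo ligand of mesenchyme (chromosome 5, 47983138 to 48307733), read 363.7, 360.4 and 338.1 CPM in controls and 438.8, 431.9 and 430.9 CPM in mutants. The mutant pools lay close together and above every control pool. The log2 fold change was 0.29 (SE 0.041, edgeR adjusted p = 0.0035), a 1.23-fold difference called under all 16 alternatives. Slit3 read 127.4, 151.3 and 138.2 CPM in controls and 151.4, 175.1 and 167.3 CPM in mutants, with mutant pool 1 level with control pool 2. The log2 fold change of 0.24 (SE 0.073) missed the edgeR threshold (adjusted p = 0.081), whereas DESeq2 called it (adjusted p = 0.0226). Slit1 was lower in abundance, at 8.3 to 13.2 CPM over the 6 pools, with overlapping groups (-0.13, SE 0.175). Slit2 led the family at 35.5 ± 1.4 CPM per kb in controls and 43.6 ± 0.428 in mutants (SD, n = 3) by the length of the principal transcript, but Slit3 led when all annotated exon bases were counted, since those of Slit2 span 25433 bases against 9960 in the transcript.

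Robo1, the main Robo gene here at 19.5 ± 3.83 CPM per kb in controls and 19.6 ± 1.29 in mutants (SD, n = 3), read 144.0, 177.9 and 120.3 CPM in controls and 153.2, 136.9 and 154.3 CPM in mutants. The mutant values fell inside the control range, and the 95% interval of the log2 fold change ran from -0.23 to 0.24. Robo4, the endothelial member, lay at 32.3 to 35.6 CPM in controls, and the mutant pools at 39.9, 37.1 and 34.6 CPM overlapped with them (0.13, SE 0.072, edgeR adjusted p = 0.364, not called). Robo3, which lies 553 bases from Robo4 on the opposite strand, had 0 to 3 reads in each library.

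Robo2 had the highest coefficient of variation in both groups among guidance genes of at least 10 CPM in controls, at 26.0% in controls and 60.9% in mutants. It read 40.2, 39.3 and 24.2 CPM in controls and 44.1, 11.8 and 24.4 CPM in mutants, so the highest and the lowest library were both mutants. The log2 fold change was -0.37 (SE 0.384, edgeR adjusted p = 0.661), with a 95% interval of -1.13 to 0.38. It was -0.02 without mutant pool 2, -0.93 without mutant pool 1, and -1.13 with a call (adjusted p = 0.0435) without both mutant pool 1 and control pool 3. Tlx1 and Nkx2-5, transcription factor genes of the spleen primordium, which lies beside the dorsal pancreas, are set beside it, chosen after their values were seen. Tlx1 read 47.3, 62.2 and 40.3 CPM in controls and 50.1, 24.3 and 38.2 CPM in mutants, and Nkx2-5 read 15.6, 19.8 and 10.3 CPM in controls and 16.8, 5.18 and 11.7 CPM in mutants. In all 3 genes control pools 1 and 2 and mutant pool 1 were the highest libraries and mutant pool 2 was the lowest. Other genes of the same 8-gene list of stomach, gut and spleen primordium did not follow that order. Vil1 was highest in control pool 3 and lowest in mutant pool 1, Onecut3 was lowest in mutant pool 1, and Sox2 was high in control pool 2 alone. The 8 genes summed to 63.1 to 99.8 CPM in controls and 36.8 to 71.6 CPM in mutants, and their part in the Robo2 values was not tested.

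**Figure D4:**
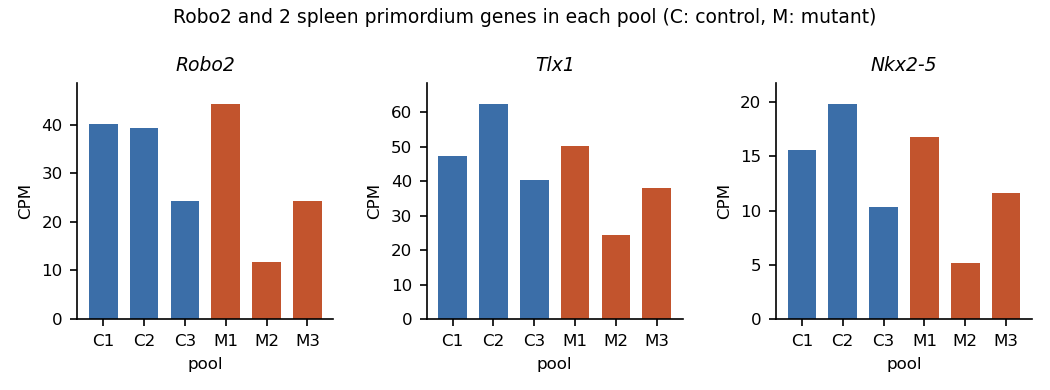
Level in CPM (vertical axis, from 0) of Robo2, Tlx1 and Nkx2-5 in each of the 6 pools, 1 bar per library. In each panel C1, C2 and M1 are the 3 tallest bars and M2, at 11.8 CPM for Robo2, is the shortest.

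By the looser measure of no overlap between the 3 control and 3 mutant values, 16 of 55 guidance genes were separated (29.1%, against 26.4% of all genes tested). The count of separated genes was thus near the background. Of these, 14 had the mutants above (25.5%, against 13.1%) and 2 had them below (3.64%, against 13.4%). The 7 that were separated and not called were Plxnc1, Slit3, Efna3, Efna4, Efna1, Efnb2 and Epha5. By DESeq2, 11 guidance genes were called higher, with Epha4, Plxnc1 and Slit3 beside the 8 of edgeR, and 4.29% of all genes were called higher by that test.

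Partner genes of these pathways were drawn from 3 lists of co-receptors, adaptors and effectors. Of 64 tested partners, 5 were called higher (7.81%, against 3.67% of all genes) and 3 lower (4.69%, against 4.28%). Among 22 tested semaphorin and plexin partners, 2 were higher and 2 lower. Nrp1, encoding the neuropilin co-receptor of class 3 semaphorins and vascular endothelial growth factor, rose from 277.8 ± 22.5 to 368.3 ± 11.4 CPM (SD, n = 3; log2 fold change 0.41, SE 0.059, edgeR adjusted p = 0.00429). Nrp2, the co-receptor favoured by Sema3f, read 99.4, 100.5 and 87.6 CPM in controls and 129.1, 99.6 and 96.3 CPM in mutants. Its groups overlapped and it was not called (0.18, SE 0.108, edgeR adjusted p = 0.415). Mical1, encoding an actin-oxidising enzyme downstream of plexins, rose by 0.43 (SE 0.061, edgeR adjusted p = 0.00371). Dpysl5, encoding a collapsin response mediator of growing neurites, changed by -0.84 (SE 0.092, edgeR adjusted p = 0.00106), and L1cam, encoding a neuronal adhesion molecule of the Sema3a receptor complex, by -1.54 (SE 0.282, edgeR adjusted p = 0.0119).

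Of 22 Eph and ephrin partners, 1 was higher and 1 lower. Tiam1, a Rac activator, changed by 0.37 (SE 0.068, edgeR adjusted p = 0.0126) and Ngef, encoding ephexin-1, by -1.26 (SE 0.23, edgeR adjusted p = 0.0118). Without mutant pool 2 neither was called (edgeR adjusted p = 0.0543 and 0.0528), and Tiam1 was not called without control pool 1 (0.0608). Of 20 Slit and Robo partners, Sdc2, a heparan sulphate carrier, and Flrt3, a Robo1-binding membrane protein, were higher, by 0.20 (SE 0.049, edgeR adjusted p = 0.0427) and 0.24 (SE 0.059, edgeR adjusted p = 0.0372). Each of these calls was lost without any one of the 6 pools, with total-count scaling, with the replicate block and with DESeq2 (adjusted p at most 0.167 for Sdc2 and 0.195 for Flrt3 over the alternatives).

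Markers of several cell types moved in the same libraries. In RNA from whole organs, fewer cells of a type and less RNA per cell cannot be told apart. Mesenchyme markers, the compartment in which Slit2 is typically made, summed to 8892 to 9173 CPM in controls and 9952 to 11314 CPM in mutants, with 2 of 10 called higher. The collagen genes Col1a1, Col1a2 and Col3a1 made up most of this sum, with control means of 1806, 2108 and 3414 CPM. Of the 10 mesenchyme markers, 9 had a log2 fold change above 0 and 5 overlapped between groups, among them Vim (0.05), Pdgfra (0.10), Tcf21 (0.21) and Nkx3-2 (-0.18). Endothelial markers summed to 677.4 to 761.3 CPM in controls and 759.6 to 958.9 CPM in mutants, with 1 of 10 called higher, and pericyte and smooth muscle markers to 275.5 to 457.1 and 385.5 to 414.8 CPM, with 2 of 8 higher. Markers of neurons, glia and neural crest summed to 204.1 to 277.5 CPM in controls and 162.7 to 184.6 CPM in mutants, with 6 of 12 called lower. Tubb3, a neuronal tubulin gene, was lower in mutants as L1cam was, with 24.6 ± 10.1 CPM in control pools and 8.97 ± 0.763 CPM in mutant pools (SD, n = 3), and both were highest in control pool 3. Endocrine lineage markers summed to 1738 to 2245 CPM in controls and 1136 to 1208 CPM in mutants, with 9 of 10 lower, and pancreatic epithelium markers to 2445 to 3315 and 2767 to 3430 CPM, with 3 of 10 lower. The largest part of the epithelial sum was Cpa1, with a control mean of 1269 CPM against a mutant mean of 1743 CPM. Cpa1 was not called and its groups overlapped (log2 fold change 0.46, SE 0.191). Most of the epithelial list went the other way, with 8 log2 fold changes below 0, 2 above 0 and a median of -0.21. None of the markers in these 6 lists was at 0 in all libraries, and their part in the guidance gene results was not tested. Erythroid markers summed to 1462 to 2329 and 1647 to 2445 CPM with 4 of 8 higher, mesothelial markers to 213.0 to 241.7 and 240.7 to 305.6 CPM with 1 of 5 tested higher, and macrophage markers to 146.6 to 170.2 and 160.8 to 181.6 CPM with 0 of 6 called. Hepatocyte markers summed to 329.5 to 470.6 and 174.1 to 205.6 CPM with 3 of 5 tested lower. Those were Ttr (log2 fold change -0.88), Afp (-1.58) and Alb (-3.16). Ttr made up most of the hepatocyte sum, with a control mean of 305.3 CPM against a mutant mean of 166.3 CPM. Alb had 46 to 73 reads per control pool. Whether the pools differed in liver tissue was not tested.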

How the data were processed

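Messenger RNA of 3 control and 3 mutant pools was measured. The authors deposited whole-number read counts per gene symbol, not normalized. Per the submitters' processing notes, cutadapt 1.13, STAR, HTSeq 0.6.1p1, DESeq2 and build mm10 were used, with no role or order. For the annotation, the strand setting and multimapping reads, the method is not given in the sources used here.

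Counts were fitted with edgeR 4.0.16 in R 4.3.3 (filterByExpr with a minimum count of 10, TMM, quasi-likelihood F test, genotype as the only term), with Benjamini-Hochberg adjustment over all 14687 genes tested. SE is the log2 fold change divided by the square root of F. CPM used TMM-scaled totals. CPM per kb used the principal transcript of GENCODE M21 (GRCm38), which placed all 58 guidance genes. The test was run on simulated counts whose changes were larger than those of most guidance genes, so smaller changes were not checked. Named genes were the called ones, the most abundant of each family, those not called without overlap, the Slit and Robo genes, Efnb2, Ephb4, Nrp1 and Nrp2, and called partners. The guidance genes, lists and tests were chosen with earlier results of these data known. Alternatives were other scalings, filters and tests (DESeq2 1.42.0, limma 3.58.1 voom), a replicate block, and leaving out pools.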

Additional observations from a re-analysis of the deposited data

How the results depend on the processing

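With DESeq2 size factors, upper-quartile scaling or total-count scaling in edgeR, robust estimation, either filter, or limma voom, the same 9 guidance genes were called. Sema3f, Sema5b, Slit2, Efna5, Epha2 and Sema4a were called under all 16 alternatives. With single pools left out, guidance genes called higher numbered 5 to 10 and lower 1, partner genes 2 to 6 higher and 2 to 4 lower, and all genes 282 to 696 higher and 343 to 725 lower. Without both pools with almost no Xist counts, all genes called numbered 315 higher and 350 lower, and guidance genes 6 higher (Efnb1, Epha8 and Sema6d lost, Epha4 gained) and 2 lower (Robo2 gained). Partner genes called higher numbered 3 with total-count scaling and 3 with the replicate block. Total-count scaling moved the median of all genes to -0.03 and the share of calls that were higher from 46.2% to 39.2%. Fold changes under each alternative were examined singly for 25 guidance genes, of which 2 that were not called changed direction. The other tested guidance genes were refitted too, but their directions were not examined singly, so more of them may have changed direction. Robo1 was -0.0185 with total-count scaling, -0.15 without both low-Xist pools and -0.12 to 0.16 with single pools left out. Sema4c was -0.0004 with total-count scaling, -0.0019 without both low-Xist pools and -0.0212 to 0.0935 with single pools left out.

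Equal replicate numbers are not said to mark a shared litter or day. Deviations of equally numbered pools correlated at 0.14, 0.10 and -0.05 over 14687 genes, so the numbers were not taken as pairs, and not every pool correlated best with its own number. The replicate block gave 576 genes higher and 562 lower, with 10 guidance genes higher and 1 lower, adding Plxnc1 and Slit3. With 3 pools a group, SEs of guidance genes were 0.088 at the median, and differences well above that could go uncalled. Plxnc1 at 0.50 (SE 0.144) and Efna3 at 0.40 (SE 0.130) were not called, while Slit2 at 0.29 (SE 0.041) was. A gene not called is thus not shown to be unchanged, and Epha6, Epha10 and Robo3 were too scarce to test.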
